A study of Mus musculus with 8 samples.

Results

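The 8 genes described here carry bile acids across the intestinal epithelium or belong to the response to them, and they were taken as a fixed list of mouse symbols out of the 45706 genes counted. They are the uptake transporter Slc10a2, the cytosolic carrier Fabp6, the exporter subunits Slc51a and Slc51b, the nuclear bile acid receptor Nr1h4 (FXR), its target genes Nr0b2 (SHP) and Fgf15, and the membrane bile acid receptor Gpbar1 (TGR5). All 8 had a row in both count tables. Expression was measured by RNA-Seq in crypts, the gland-like pockets at the base of the epithelium, from the colon (COL) and small intestine (SI) of 4 C57BL/6N wild-type donor mice, for which the labels give no treatment. Both tissues of every mouse were sequenced, giving 4 SI libraries (SI1 to SI4) and 4 COL libraries (COL1 to COL4), with mice 1 and 4 female and mice 2 and 3 male. The labels give the last mouse the donor number 5. Crypts were released with EDTA per the labels, which name no segment of the SI. The study's isolation steps, written down for its organoid cultures, start from the proximal SI, with villi removed beforehand. The age of the mice is not given in the sources used here.

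Bile acids are made in the liver, released into the gut lumen and reclaimed mainly in the ileum, the distal end of the SI. There Slc10a2 takes them up at the apical membrane, Fabp6 binds them in the cytosol, and the Slc51a and Slc51b proteins together form the exporter at the basolateral membrane. Inside the cell bile acids activate FXR, which pairs with a retinoid X receptor, induces Nr0b2, Fabp6 and the exporter subunits, and in the ileum induces Fgf15, a hormone that lowers bile acid synthesis in the liver.

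Total counts ranged from 15969428 to 32908060 per library. The mitochondrial share of the counts was low, 4.83% to 7.35%, in COL3, COL4, SI1 and SI4 and high, 22.7% to 50.8%, in the other 4 libraries, so values are also given within each of these 2 sets. Levels are given as CPM, counts scaled by the TMM-normalized size of the library, and all fold changes compare SI with COL, a positive log2 value being higher in SI. Of 7 tested markers of the proximal SI enterocyte 6 were higher in SI. The exception, Slc40a1, leaned toward COL (log2 fold change -1.58, edgeR, adjusted p = 0.324). In the fit blocked by mouse it was called higher in COL (-2.94, adjusted p = 0.0164). A further marker of this list, Cybrd1, was below the filter, at a mean of 0.152 CPM in SI. Of 6 markers listed for the colonocyte 5 were higher in COL, among them Muc2, a goblet cell mucin. Of 5 tested Paneth cell markers 4 were higher in SI. Of 4 tested immune markers 2, Cd8a and Cd3e, were higher in SI, with a summed level of 34.0 to 77.8 CPM over the list in SI and 12.1 to 35.4 CPM in COL. Neither was called with library size alone (adjusted p = 0.078 and 0.166), and Cd3e was not called without SI1, SI4, COL1, COL2 or COL3 either (adjusted p = 0.0779 to 0.114). Without COL4 their log2 fold changes were 3.07 and 3.13, in place of 2.26 and 2.05. Of 5 stromal markers 1, Pecam1, was higher in COL, a call lost without SI3, SI4 or COL2 (adjusted p = 0.0558 to 0.0668), and the summed level was at most 12.0 CPM in SI and 13.2 CPM in COL. In bulk libraries such as these, fewer cells of a type and less RNA per cell cannot be told apart.

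The 8 genes did not follow 1 direction. The uptake transporter, the cytosolic carrier and FXR were higher in COL crypts, whereas both exporter subunits and the FXR target Nr0b2 were higher in SI crypts. Of the 8 genes, 6 passed the filter on low counts, and of these 3 were higher in SI and 3 were higher in COL (edgeR quasi-likelihood test, adjusted p under 0.05). Over all 14491 genes tested, 28.4% were called, 15.5% toward SI and 12.9% toward COL. The CPM ranges of SI and COL did not overlap for these 6 genes, which was the case for 33.5% of all genes tested. Fgf15 and Gpbar1 stayed below the filter. The median log2 fold change over all genes was -0.09 with TMM and -0.82 when counts were scaled only by library size. The latter scaling gave 1115 genes toward SI and 4788 toward COL, in place of 2253 and 1863, while the 6 genes kept their direction and their call.

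**Figure D1:**
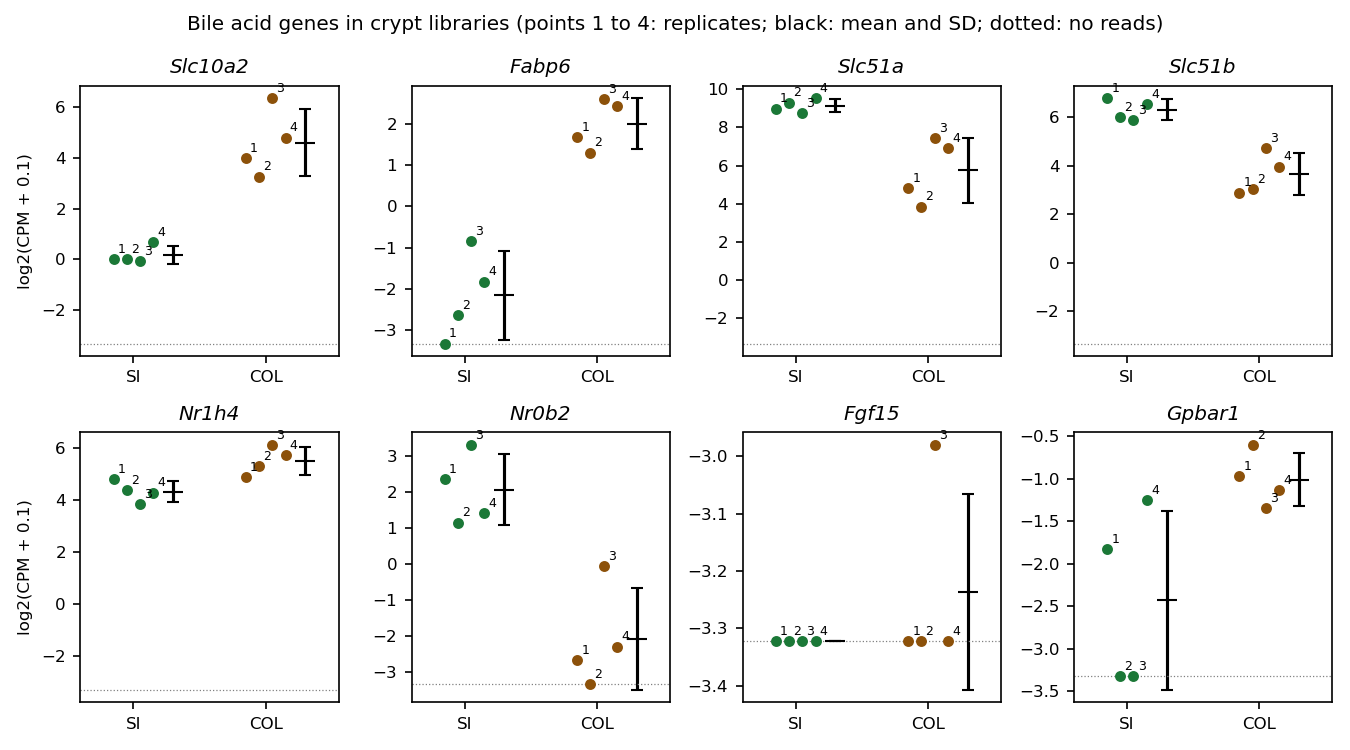
Level of each bile acid gene in every library, as log2(CPM + 0.1), with SI in green and COL in brown, points numbered by replicate and the black mark giving the mean and SD of 4 libraries. Slc10a2, Fabp6 and Nr1h4 lay higher in all COL libraries, Slc51a, Slc51b and Nr0b2 lay higher in all SI libraries, and Fgf15 sat at the dotted line of no reads in every library but COL3.

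Slc10a2, the apical sodium-dependent bile acid transporter (ENSMUSG00000023073, mm10 chr8:5083219-5105351, minus strand), was scarcely expressed in SI crypts. Its level was 0.906, 0.906, 0.862 and 1.51 CPM in SI1 to SI4, from 15 to 33 reads per library. In COL1 to COL4 it was 15.9, 9.51, 82.0 and 27.8 CPM. The lowest COL library thus lay above the highest SI library, and the SI libraries spread over a 1.75-fold range, with SI4 the highest, against an 8.62-fold range in COL. The mean was 1.05 ± 0.31 CPM over the SI and 33.8 ± 33.01 CPM over the COL libraries (SD, n = 4), a 32.3-fold difference of means. In edgeR the log2 fold change was -5.005 ± 0.68 (SE, adjusted p = 0.000249), and only 249 of the 14491 genes had a lower value. COL3 held the highest level, and without it the log2 fold change was -4.07 (adjusted p = 0.000182). Within the mice the difference in log2(CPM + 0.1) was -3.99, -3.26, -6.42 and -4.12.

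Fabp6, the ileal bile acid binding protein (ENSMUSG00000020405, chr11:43596049-43601540, minus strand), went the same way with fewer reads. It had 0, 1, 9 and 4 reads in SI1 to SI4 and 105, 38, 223 and 251 reads in COL1 to COL4. This corresponds to 0, 0.0604, 0.456 and 0.183 CPM in SI and to 3.08, 2.36, 5.97 and 5.26 CPM in COL. All COL libraries were above all SI libraries, and 9 of the 14 SI reads came from SI3. The log2 fold change was -4.54 ± 0.87 (SE, edgeR, adjusted p = 0.00242), and it was -5.58 without SI3 (adjusted p = 0.00188). Per kb of exon, Fabp6 reads stood to Slc10a2 reads as 1.68, 2.15, 0.631 and 1.64 in COL1 to COL4. The carrier was thus ahead of the transporter per kb in COL1, COL2 and COL4, and Slc10a2 was ahead in COL3. Both genes are known for high expression in the ileum, and both were low in these SI crypts.

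Promoter sequences of both genes are shown because they are the pair with the largest differences toward COL and share no motif in the set searched. They are RefSeq windows (GRCm38.p6), which end 1 base before the transcript start and are cut where the GENCODE gene begins. Capitals mark motif matches, on either strand.
Slc10a2, chr8:5105352-5105537, minus strand: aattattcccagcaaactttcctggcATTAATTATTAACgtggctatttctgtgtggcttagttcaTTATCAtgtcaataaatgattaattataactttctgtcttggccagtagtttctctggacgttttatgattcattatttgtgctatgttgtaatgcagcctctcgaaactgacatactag
Fabp6, chr11:43601563-43601812, minus strand: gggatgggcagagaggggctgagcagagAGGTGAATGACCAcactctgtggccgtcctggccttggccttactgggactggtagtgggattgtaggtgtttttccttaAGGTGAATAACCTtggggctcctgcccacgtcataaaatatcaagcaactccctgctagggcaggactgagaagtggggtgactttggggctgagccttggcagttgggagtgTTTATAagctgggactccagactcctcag
In the Slc10a2 window the capitals mark a match with 1 mismatch to the palindrome GTTAATNATTAAC of the hepatocyte nuclear factor HNF1, 224 to 212 bases before the RefSeq start, and a GATA motif at 184 to 179 bases. The HNF1 palindrome with up to 2 mismatches occurred in 1.24% of 32851 promoter windows of 250 bases and the GATA motif (AGATAA or TGATAA) in 16.6%. In the Fabp6 window the capitals mark 2 matches, each with 2 mismatches, to the inverted repeat AGGTCANTGACCT (IR-1), the arrangement of half-sites that FXR with its partner is known to bind. They lay 222 to 210 and 142 to 130 bases before the start, and the third capital stretch is a TATAAA on the other strand at 29 to 24 bases. At this tolerance the inverted repeat occurred in 0.959% of all windows, and Fabp6 was the 1 of 7 bile acid genes with a window that held it. A match is a likeness of letters and not a shown binding site.

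Slc51a, the alpha subunit of the exporter (ENSMUSG00000035699, chr16:32474504-32487879, minus strand), had the highest mean level per kb of the 8 genes in both tissues, though its range met that of Slc51b in SI and those of Slc51b, Nr1h4, Fabp6 and Slc10a2 in COL. Its level was 504, 628, 428 and 733 CPM in SI1 to SI4. In COL1 to COL4 it was 27.7, 14.4, 175 and 119 CPM. The ranges did not overlap, but COL3 and COL4 lay well above COL1 and COL2, a 12.2-fold range against 1.71-fold in SI. The mean was 573 ± 135 CPM over the SI and 83.9 ± 76.3 CPM over the COL libraries (SD, n = 4). The log2 fold change was 2.77 ± 0.69 (SE, edgeR, adjusted p = 0.0111), and without COL3 it was 3.42 (adjusted p = 0.00575). Its SD of log2 CPM among COL libraries, 1.70, was larger than that of 97.6% of all genes tested, while its SD in SI, 0.34, was larger than that of 29.8%.

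Slc51b, the beta subunit (ENSMUSG00000053862, chr9:65412714-65422955, minus strand), had 109, 63.4, 57.8 and 92.9 CPM in SI1 to SI4. In COL1 to COL4 it had 7.31, 8.02, 26.5 and 15.4 CPM. Again all SI libraries were above all COL libraries, and COL3 was the highest COL library for both subunits. The mean was 80.7 ± 24.2 CPM over the SI and 14.3 ± 8.90 CPM over the COL libraries (SD, n = 4), with a log2 fold change of 2.49 ± 0.44 (SE, edgeR, adjusted p = 0.00136). Within the mice the difference in log2(CPM + 0.1) was 3.88, 2.97, 1.13 and 2.58 for Slc51b, and 4.18, 5.44, 1.29 and 2.63 for Slc51a. Mouse 3 had the smallest difference for both.

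Both subunit genes overlap a neighbour on the opposite strand at their 3′ ends, and whether the counting used the strand is not given in the sources used here. Pcyt1a overlaps Slc51a by 567 bases, and 20.2% of the 50-base stretches of the longest Slc51a transcript also occur in Pcyt1a. Pcyt1a, an enzyme of phosphatidylcholine synthesis, was itself higher in SI, at 286 ± 78.9 CPM against 34.1 ± 10.1 CPM in COL (SD, n = 4). For Slc51b the share of stretches was 6.52%, with Rasl12, at 3.03 ± 0.98 CPM in SI against 0.910 ± 0.395 CPM (SD, n = 4). Reads from these overlaps cannot be told apart by gene without the strand.

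The 2 subunits work only together, so their reads were compared within each library. There were 4.64, 9.89, 7.40 and 7.90 Slc51a reads per Slc51b read in SI1 to SI4. In COL1 to COL4 there were 3.79, 1.79, 6.61 and 7.69. The mean log2 ratio was 2.85 ± 0.46 over the SI and 2.11 ± 0.95 over the COL libraries (SD, n = 4), a difference of 0.74 that did not pass a two-sided exact permutation test (p = 0.2, where the design can reach 0.0286). In the libraries with a low mitochondrial share the difference was -0.24, and in those with a high share it was 1.72, with COL2 the lowest ratio of all. Per kb of exon, Slc51a was above Slc51b in all 4 SI libraries (1.03 to 2.19 times) and in COL3 and COL4, and below it in COL1 and COL2 (0.840 and 0.396 times).

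The ratio of the uptake to the export transporter, which does not depend on the scaling between libraries, parted the tissues more clearly. Slc10a2 reads per kb stood to Slc51a reads per kb as 0.00138, 0.00111, 0.00155 and 0.00159 in SI1 to SI4. In COL1 to COL4 the ratio was 0.441, 0.510, 0.361 and 0.181. It spread less among the COL libraries than either gene did on its own, since COL3 and COL4 were high for both. This ratio was chosen after the values were seen and is given as a description. Its separation of the tissues was fixed in advance, since both genes had ranges without overlap and went opposite ways.

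**Figure D2:**
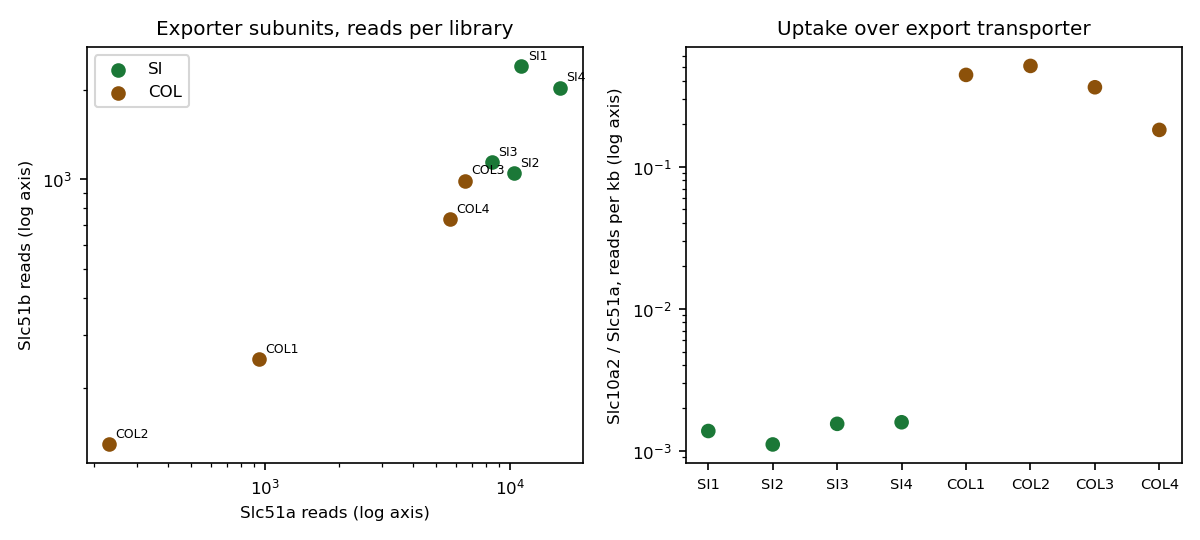
Left, reads of the exporter subunits Slc51a and Slc51b in each library on log axes, with SI in green and COL in brown. Right, reads per kb of Slc10a2 over reads per kb of Slc51a in each library on a log axis. The ratio was at most 0.00159 in SI and at least 0.181 in COL, while COL1 and COL2 held fewer reads of both exporter subunits than the other 6 libraries.

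The promoter windows of the exporter subunits are shown because FXR is known to induce both genes together.
Slc51a, chr16:32487880-32488129, minus strand: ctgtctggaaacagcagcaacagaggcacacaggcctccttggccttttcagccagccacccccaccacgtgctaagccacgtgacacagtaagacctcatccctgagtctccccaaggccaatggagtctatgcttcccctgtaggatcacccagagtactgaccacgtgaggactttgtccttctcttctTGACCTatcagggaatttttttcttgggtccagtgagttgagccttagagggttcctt
Slc51b, chr9:65422956-65423023, minus strand: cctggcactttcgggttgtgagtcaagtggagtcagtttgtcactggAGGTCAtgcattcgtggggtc
Capitals mark 1 nuclear receptor half-site, AGGTCA or its reverse complement, in each window, 58 to 53 bases before the RefSeq start of Slc51a and 203 to 198 bases before that of Slc51b. Such a half-site occurred in 14.0% of all windows. For Slc51b only the 68 bases outside the GENCODE gene are shown, as its RefSeq start lies 182 bases inside it. Its RefSeq entry runs on past that start, and the last letters of the entry were found in no GENCODE transcript of Slc51b. The distance given for Slc51b thus rests on the RefSeq start alone.

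**Figure D3:**
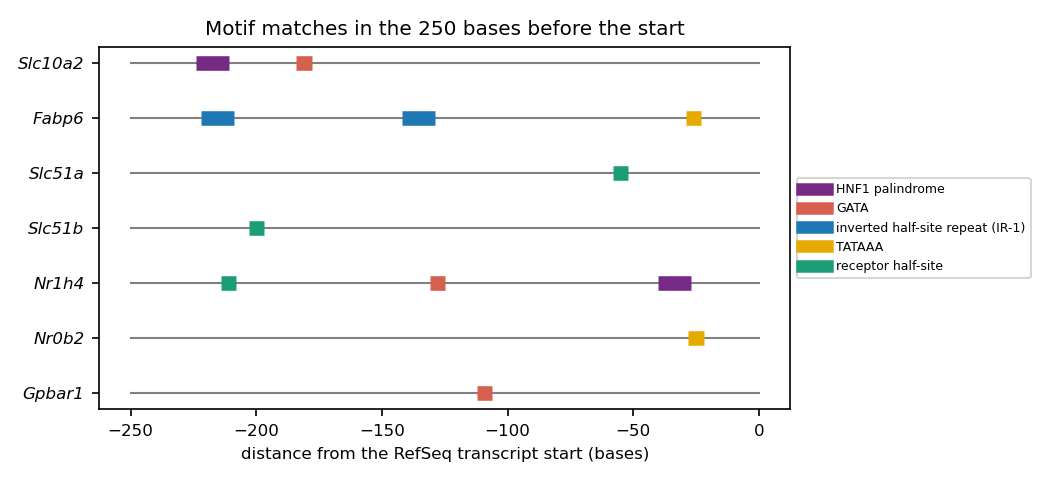
Motif matches on either strand in the 250 bases before the RefSeq transcript start of 7 bile acid genes, with distance from the start in bases and 1 colour per motif. The inverted repeat appears only in the Fabp6 window, and half-sites appear in the windows of Slc51a, Slc51b and Nr1h4.

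Nr1h4, which encodes FXR (ENSMUSG00000047638, chr10:89454234-89533585, minus strand), was expressed in crypts of both tissues and differed the least of the 6 genes tested. It had 27.8, 20.7, 14.4 and 19.4 CPM in SI1 to SI4. In COL1 to COL4 it had 29.2, 39.2, 69.97 and 53.5 CPM. SI1 and COL1, from the same mouse, nearly met, and in the other mice COL was clearly higher. The mean was 20.6 ± 5.56 CPM over the SI and 48.0 ± 17.7 CPM over the COL libraries (SD, n = 4), a 2.33-fold difference. The log2 fold change was -1.22 ± 0.32 (SE, edgeR, adjusted p = 0.0148). The call was lost without SI3 (log2 fold change -1.07, adjusted p = 0.0534) and without COL3 (-0.98, adjusted p = 0.0515). The window before its RefSeq start, which lies inside the GENCODE gene and is not shown, held a half-site, a GATA motif and an HNF1 palindrome with 2 mismatches.

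Nr0b2, which encodes SHP, a repressor that FXR induces (ENSMUSG00000037583, chr4:133553376-133556536, plus strand), went opposite to its receptor. It had 111, 35, 193 and 56 reads in SI1 to SI4 and 2, 0, 32 and 5 reads in COL1 to COL4. The levels were 5.03, 2.12, 9.78 and 2.56 CPM in SI. In COL they were 0.0587, 0, 0.856 and 0.105 CPM, so that COL3 alone held most of the COL reads and still lay below the lowest SI library. The log2 fold change was 4.16 ± 1.02 (SE, edgeR, adjusted p = 0.0101), and without COL3 it was 6.13 (adjusted p = 0.00100). Per kb, Nr0b2 reads stood to Nr1h4 reads as 0.368, 0.208, 1.39 and 0.269 in SI1 to SI4, and as 0.00409, 0, 0.0249 and 0.00398 in COL1 to COL4. Mouse 3 had the highest Nr0b2 level in both tissues. Its promoter window is shown because it had the largest log2 fold change toward SI among the 8 genes, and the capitals mark a TATAAA motif 28 to 23 bases before the start, found in 12.4% of all windows.
Nr0b2, chr4:133553126-133553375, plus strand: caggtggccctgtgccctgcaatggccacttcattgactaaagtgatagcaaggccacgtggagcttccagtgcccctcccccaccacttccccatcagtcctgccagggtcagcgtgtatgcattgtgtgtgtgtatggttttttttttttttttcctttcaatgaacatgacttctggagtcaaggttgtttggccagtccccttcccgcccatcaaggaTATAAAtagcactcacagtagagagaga
No half-site, inverted repeat, HNF1 palindrome or GATA motif was found in this window, which says nothing of sites elsewhere.

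Fgf15, the hormone made in the ileum in response to FXR (ENSMUSG00000031073, chr7:144896531-144900953, plus strand), had 0 reads in all 4 SI libraries and in COL1, COL2 and COL4, and 1 read in COL3. A floor of 3 counts over the SI group corresponds to 0.0374 CPM, so a level up to that value was not detectable in SI. Both groups were under the floor, and no fold change is given. It overlaps Gm26793 on the opposite strand, with 21.6% of its stretches shared.

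Gpbar1, the membrane bile acid receptor (ENSMUSG00000064272, chr1:74278550-74279624, plus strand), had 4, 0, 0 and 7 reads in SI1 to SI4 and 14, 9, 11 and 17 reads in COL1 to COL4. The levels were 0 to 0.321 CPM in SI and 0.294 to 0.559 CPM in COL. The ranges overlapped through SI4. The difference in mean log2(CPM + 0.1) was -1.42 (two-sided exact permutation test, p = 0.0571), with COL higher in 4 of 4 mice. Without a filter edgeR gave a log2 fold change of -1.60 (adjusted p = 0.464).

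Compared per kb of exon, the order of levels differed between the tissues. In SI crypts the mean was 179 ± 42.1 CPM per kb for Slc51a, 114 ± 34.1 for Slc51b, 8.92 ± 2.41 for Nr1h4 and 4.30 ± 3.11 for Nr0b2 (SD, n = 4). The ranges of the exporter subunits overlapped, as did those of Nr1h4 and Nr0b2. Fabp6 (0.365 ± 0.423), Slc10a2 (0.252 ± 0.075) and Gpbar1 (0.117 ± 0.145) followed and did not differ beyond their spread. In COL crypts the order of means was Slc51a (26.2 ± 23.9 CPM per kb), Nr1h4 (20.8 ± 7.70), Slc51b (20.2 ± 12.6), Fabp6 (8.70 ± 3.59) and Slc10a2 (8.14 ± 7.95), and each of them overlapped its neighbours in this order. The range of Slc51a met those of the other 4. Gpbar1 (0.377 ± 0.105) and Nr0b2 (0.225 ± 0.356) were again not separable. Among all genes tested, Slc51a was above 97.5% per kb in SI and 91.4% in COL, Slc10a2 above 15.1% in SI and 77.2% in COL, and Nr0b2 above 61.8% in SI and 8.6% in COL.

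**Figure D4:**
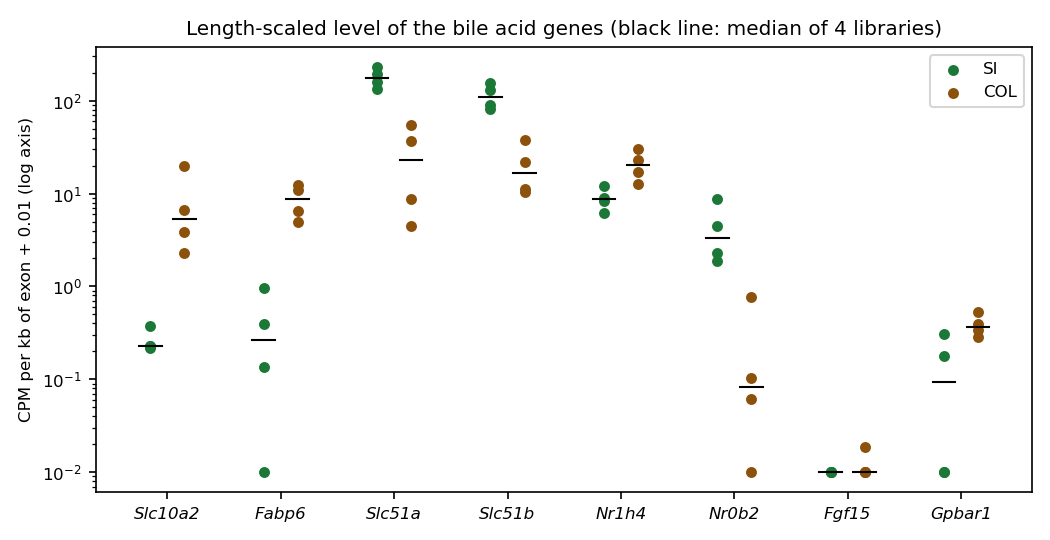
Level of each bile acid gene per kb of exon in SI (green) and COL (brown) libraries, as CPM per kb + 0.01 on a log axis, with 1 point per library and a black line at the median of 4 libraries. The exporter subunits stood highest in SI, and in COL the ranges of Slc51a, Nr1h4, Slc51b, Fabp6 and Slc10a2 overlapped from each to the next.

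The CPM ranges of the 6 genes past the filter did not overlap, as was the case for 33.5% of all genes tested. That alone fixes p in the two-sided exact permutation test at 0.0286 for each of them, the lowest value this design can reach. It also fixes the same direction in 4 of 4 mice, so neither result adds to the lack of overlap. The direction within both sets of mitochondrial share is fixed by the same lack of overlap, so only the sizes are of interest. In the low-share libraries the differences in log2(CPM + 0.1) were -5.23 for Slc10a2, -5.08 for Fabp6, 2.08 for Slc51a, 2.31 for Slc51b, -1.39 for Nr1h4 and 3.06 for Nr0b2. In the high-share libraries they were -3.65, -3.23, 4.69, 2.97, -0.97 and 5.22 in the same order. Within COL, COL3 and COL4 with the low share lay above COL1 and COL2 for all 6 genes, by 0.85 for Nr1h4 up to 2.85 for Slc51a. How many of all genes tested did the same was not determined, so this is not shown to be particular to these genes. Within SI the 2 sets differed by at most 0.83 in either direction. There the low-share libraries, SI1 and SI4, were the female ones and SI2 and SI3 the male ones, so share and sex cannot be told apart in SI. The part of the mitochondrial share, or of what moves with it, in the level of these genes in COL was not tested.

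Of the 14491 genes, edgeR called 0% for an SI against COL difference that depended on sex, with 761 at an unadjusted p under 0.05, and DESeq2 called 11. For the 6 bile acid genes the adjusted p of this interaction in edgeR lay between 0.915 and 0.991. With 2 mice per sex the values are a description, and the direction in each sex is fixed by the lack of overlap between SI and COL. In SI the sexes were also the 2 sets of mitochondrial share. The values were, for example, -4.17 in females and -5.69 in males for Slc10a2 and 3.15 and 1.81 for Slc51b (log2 fold change).

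The genes whose pattern over the 8 libraries was most like each of the 6 were found by the root-mean-square (RMS) difference of centred log2 CPM. The closest match of all was Dhrs11, a short-chain dehydrogenase, to Slc51b (RMS 0.081), followed by Slc35a5 (0.188) and Cdh17 (0.206), an intestinal cadherin. Nearest to Slc10a2 were Ethe1 (0.296), a mitochondrial sulfur dioxygenase, Serpinb5 (0.462) and Bnipl (0.519). Nearest to Fabp6 were Gcg (0.332), which encodes proglucagon, Cd9 (0.435) and Tnni1 (0.467). Slc51a was nearest to Plk5 (0.314), Tmem229b (0.341) and Aqp11 (0.397), and Nr1h4 to Eef2k (0.191), Phgr1 (0.227) and Pdxdc1 (0.240). Nr0b2 had no near match, with Ano3 (0.632), Gm33370 (0.635) and Cyp2c23 (0.698) the nearest. These patterns rest on 8 libraries that all genes share.

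Other carriers of bile acids, phospholipid and sterols also went both ways. Of 12 such genes 7 were tested, 3 were higher in SI, 1 was higher in COL and 3 did not pass, with a median log2 fold change of 1.37 against -0.09 over all genes. The sterol exporter pair Abcg8 (8.24 ± 0.59) and Abcg5 (7.22 ± 0.59) and the apical exporter of conjugates Abcc2 (7.44 ± 0.74) were higher in SI (log2 fold change ± SE, edgeR, adjusted p at most 3.6e-05). Abcc4, an exporter of organic anions, was higher in COL (-2.87 ± 0.83, adjusted p = 0.0233), a call lost without SI4 (adjusted p = 0.0525) or without COL1 (adjusted p = 0.0657), while without SI3 its value was -3.99. Abcc3, a basolateral exporter of bile acid conjugates, was abundant in both tissues, at 142.9 to 217 CPM in SI against 141 to 484 CPM in COL, and did not pass (adjusted p = 0.288). With library size alone it was called higher in COL (adjusted p = 0.0339), so that this list then split into 3 and 2.

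Among 17 receptors and regulators 16 were tested, and 6 were higher in SI and 1 in COL, with a median log2 fold change of 0.70. The largest change was that of Gata4, a factor of the proximal SI, which had 48.3 to 52.9 CPM in SI but at most 0.189 CPM in COL (8.98 ± 0.64, edgeR, adjusted p = 8.57e-06, and 9.86 without COL4). The constitutive androstane receptor Nr1i3 (6.61), Hnf4g (4.44) and the liver X receptor alpha Nr1h3 (3.03) followed. Rxra, the FXR partner, was higher in SI (1.18 ± 0.24, adjusted p = 0.00343), as was Gata6 (1.14 ± 0.29, adjusted p = 0.0126), and with library size alone neither was called (adjusted p = 0.183 and 0.213). Cdx1, a hindgut homeobox factor, was higher in COL (-2.09). The other partner Rxrb (-0.84, adjusted p = 0.0565) and the liver receptor homologue Nr5a2 (-1.39, adjusted p = 0.0528) missed the threshold narrowly. Of 17 alternatives, 6 called Rxrb and 10 called Nr5a2 higher in COL, both with library size alone (adjusted p = 0.00279 and 0.00741) and Nr5a2 also in the fit blocked by mouse (adjusted p = 0.0223). With library size alone Cdx2 was called too, and the list then split into 4 higher in SI and 4 in COL. Hnf4a had a log2 fold change of 0.29 (adjusted p = 0.521).

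Other genes known as FXR targets did not move 1 way. Of 10, 8 were tested, of which 3 were higher in SI and 2 in COL, at a median log2 fold change of 0.70. Cyp3a11, which hydroxylates bile acids (11.41 ± 1.76, and 13.95 without COL4), Abcc2, and Nos2, the inducible nitric oxide synthase (5.35 ± 0.98, and 6.13 without COL2), were higher in SI. The carbonic anhydrase Car12 (-3.30 ± 0.39) and the heparan sulfate proteoglycan Sdc1 (-1.65 ± 0.24) were higher in COL. With library size alone Ang was called higher in COL as well (edgeR, adjusted p = 0.022), and this list then split into 3 and 3. In the list of the FGF15 receptor and bile acid synthesis, 8 of 13 genes were tested, and 3 were higher in SI and 2 in COL. The receptor Fgfr4 (-3.16 ± 0.59, edgeR, adjusted p = 0.00217) and its co-receptor Klb (-3.89 ± 1.09, adjusted p = 0.0188) were both higher in COL. Fgfr4 had 0.136, 1.45, 1.83 and 1.37 CPM in SI1 to SI4 and 13.7, 9.26, 9.74 and 9.88 CPM in COL1 to COL4. Klb had 0 to 9 reads in SI and 42 to 116 reads in COL, and without SI2, which held the 9, its log2 fold change was -5.57 (adjusted p = 0.00385). Malrd1, known to favour the production of FGF15 (3.73), the sterol hydroxylase Cyp27a1 (2.89) and the side-chain oxidase Acox2 (2.26) were higher in SI, and Acox2 lost its call with library size alone (adjusted p = 0.0594).

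Of 8 genes of bile acid detoxification 7 were tested and 6 were higher in SI, led by Cyp3a11 (11.41), Cyp3a25 (8.79), Sult2b1 (4.04) and Cyp3a13 (4.03). Without COL3 Cyp3a25 was at 9.39 and Cyp3a13 at 4.78. With library size alone 4 were called, Ugt1a1 (adjusted p = 0.102) and Ugt2b34 (adjusted p = 0.0593) dropping out. The Cyp3a genes are close relatives, and how shared reads were counted is not given in the sources used here. None of the 7 was called higher in COL in either scaling.

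In the family of Fabp6, Fabp1 (10.77 ± 1.31) and Fabp2 (5.22 ± 0.83), the liver and intestinal fatty acid binding proteins, were higher in SI, opposite to Fabp6 (edgeR, adjusted p = 0.000124 and 0.000732). Without COL4 the value of Fabp1 was 12.51. Fabp5 had a log2 fold change of -1.43 (adjusted p = 0.0540), which was called in the fit blocked by mouse (adjusted p = 0.0242) and with library size alone, and 5 of the 8 relatives were below the filter. Of 6 relatives of Slc10a2 4 were tested, and Slc10a7, which is not known to carry bile acids, was higher in COL (-1.59 ± 0.35, adjusted p = 0.00553). Slc10a1, the liver uptake transporter (-0.20), Slc10a3 (0.28) and Slc10a5 (0.74) did not pass. Of 6 markers of the L cell, an enteroendocrine type, 3 were higher in COL, among them Gcg (-4.16 ± 0.53) and Pyy (-4.89 ± 0.78, and -5.71 without SI4). Of 4 ileum markers other than these genes 2 were higher in SI and 1 in COL, led by Cubn (6.69 ± 0.38), the receptor for intrinsic factor. The call toward COL, that of the mucin Muc3, was lost in the fit blocked by mouse (edgeR, adjusted p = 0.0871) and without SI2, SI3, SI4, COL2, COL3 or COL4 (adjusted p = 0.0612 to 0.147). Of 5 liver or pancreas genes 2 were tested, and both were higher in COL, Cela1 (-3.55 ± 0.43) and Ttr (-3.12 ± 0.43). The untested genes had low mean levels in both tissues, Alb 0.563 CPM in SI and 0.572 CPM in COL, Cpa1 0.0302 and 0, and Prss2 0 and 0.155. Of 5 crypt base markers only Olfm4 was called, higher in SI (7.24 ± 1.48, and 10.83 without COL4). The others, Ascl2 (-1.43), Lgr5 (-0.92), Mki67 (-0.63) and Smoc2 (-0.13), leaned toward COL and were not called. The CPM ranges of Lgr5 and Ascl2 did not overlap.

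**Figure D5:**
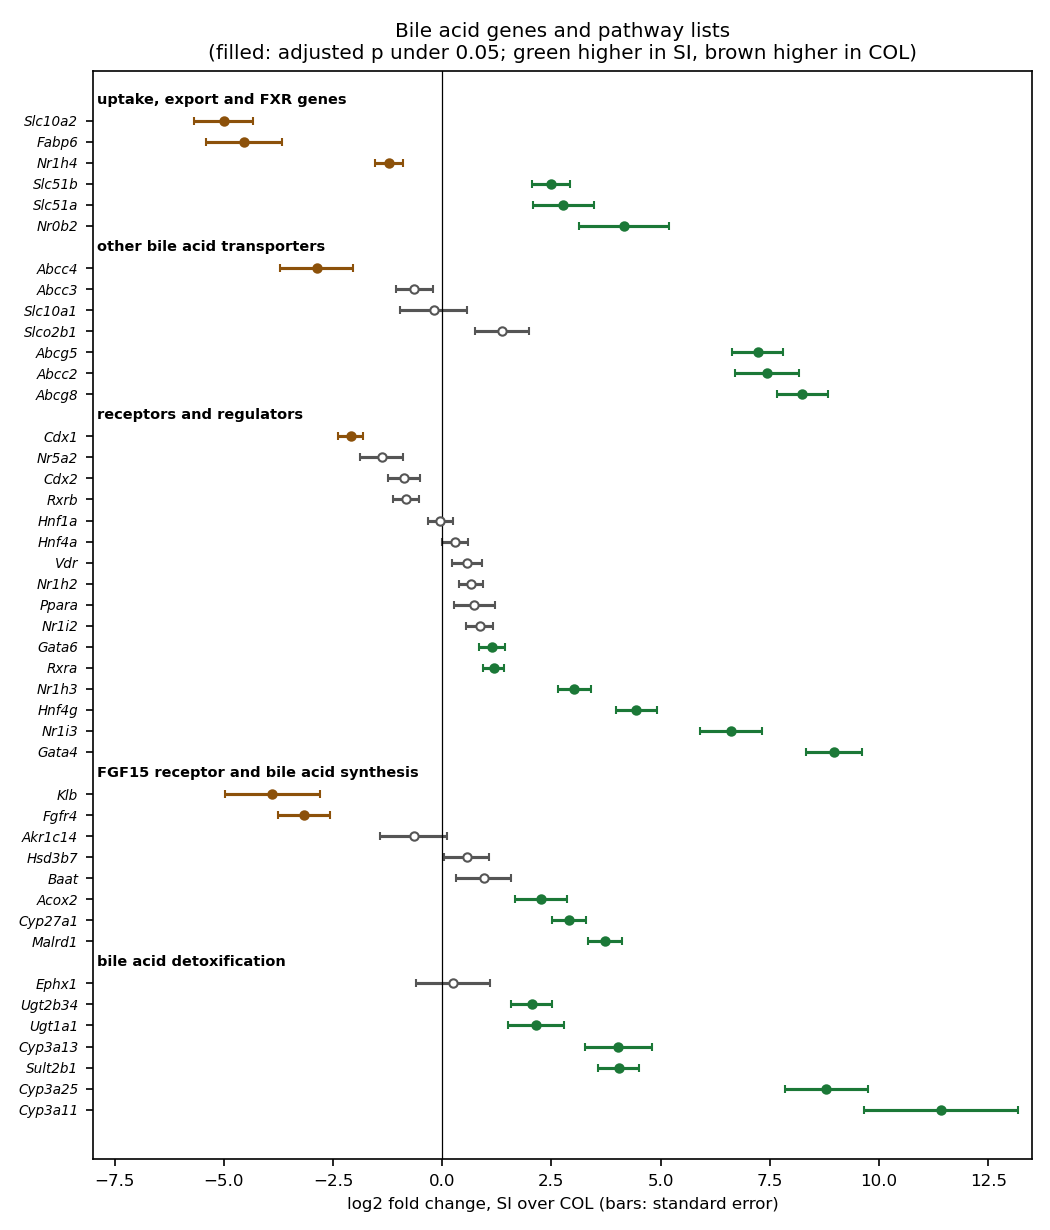
Log2 fold change of SI over COL for the tested genes of the bile acid set and of 4 pathway lists, with bars for the standard error. Filled points have an adjusted p under 0.05, green for higher in SI and brown for higher in COL, and open points do not. The set of 6 splits into 3 and 3, while 6 of 7 detoxification genes were higher in SI (4 with library size alone).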

How the data were processed

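Crypts from SI and COL of 4 mice, released with EDTA, were sequenced by the authors as 1 library per tissue and mouse. Per the paper's methods and the submitters' processing notes, reads were trimmed with Trimmomatic 0.36, aligned to mm10 with STAR 2.5.2b and counted per Ensembl gene. The notes list mm9 as well. Which annotation was counted, and whether by strand, is not given in the sources used here. The authors deposited raw counts, without normalization, for 45706 genes in 8 columns, all of which were used. GENCODE vM21, built on GRCm38 like mm10, gave symbols and coordinates and held 45143 of these genes. Promoters were taken from RefSeq (GRCm38.p6), in which 7 of the 8 genes matched.

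Counts were tested in R 4.3.3 with edgeR 4.0.16 (TMM, glmQLFit, glmQLFTest) after filterByExpr by tissue, with Benjamini-Hochberg adjustment over the 14491 genes kept and a threshold of 0.05. The paper names limma without its settings, and no term for the mouse was fitted in the main test. Exact permutation tests were two-sided over 70 assignments, on log2 values with an offset of 0.1 CPM. They did not use the pairing of libraries by mouse. The fits were tested on simulated data. The members and lists were chosen with earlier results of these data known. Named from the lists were the genes called, up to the 4 largest changes per direction and list, and a few fixed genes and relatives. Single marker and neighbour genes were added after their values were seen.

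The numbers of SI and COL libraries mark the same donor mouse per the labels. Deviations from the tissue mean, across genes, correlated at -0.24, 0.39, -0.08 and 0.33 between the libraries of a mouse, and at -0.03 on average between other libraries. Alternatives were library size alone, DESeq2 1.42.0, limma 3.58.1 (voom), a block for the mouse, other filters, removal of mitochondrial genes, and leaving out each library. The mitochondrial share as covariate, DESeq2 for the interaction with sex, and all alternatives for the list genes were added after seeing the data. With 4 libraries per tissue the spread between mice, and for genes with few reads counting error, limit the precision.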

Additional observations from a re-analysis of the deposited data

Results flagged for a closer look

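Slc10a2 in SI4, at 0.688 on the log2(CPM + 0.1) scale (1.51 CPM, 33 reads), stood apart from the other 3 SI libraries. Their levels lay close together, at 0.862 to 0.906 CPM from 15 to 20 reads, and with so few reads counting error is large. Fgf15 in COL3, at -2.98 on the same scale, stood apart from 3 COL libraries without a read, and its value rests on 1 read. Of 17 groups of 4 libraries examined in this way, chance flags about 1 in 20. That rate does not hold for Fgf15, where any read in COL3 alone is enough for the flag.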

How the results depend on the processing

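The count of genes that differed between SI and COL moved between 3167 and 5903 over all alternatives and between 3167 and 4480 when 1 library was left out, against 4116. With the mouse as a replicate block 4072 genes were called. The 6 bile acid genes kept direction and call in 98 of 100 alternatives, the exceptions being Nr1h4 without SI3 and without COL3, and their counts were 3 and 3 with the replicate block, 2 and 2 where 10 counts were asked of every library (which removed Fabp6 and Nr0b2), and otherwise 2 to 3 higher in COL without 1 library. The difference in the Slc51a to Slc51b ratio ranged from 0.317 to 1.02 without 1 library, lowest without COL2, and the sign-flip test within mice, the replicate block for this ratio, gave an exact p of 0.125, the smallest it can give. The exact permutation differences kept their direction in all 77 alternatives, and 21 no longer passed, among them the sign-flip tests, which cannot pass with 4 mice. The others were exact permutation tests without 1 library, at p = 0.0571. There the ranges still did not overlap, and p moves in coarse steps with 3 libraries against 4. For the 6 genes whose ranges do not overlap, the direction without 1 library is fixed in advance. For Gpbar1 the difference passed with library size alone (-1.84) and without SI4 (-1.81). DESeq2 called 11 genes for the interaction with sex, where edgeR called 0. Of the 57 list genes checked under every alternative, those whose sign turned were Hnf4a (-0.46) and Slc10a3 (-0.50) with library size alone, and Slc10a1. The value of Slc10a1 ran from -0.706 to 0.429 without 1 library (above 0 without SI3, SI4 or COL2), and none of them was called. Further list genes outside this check turned with library size alone, among them Vdr (0.558 to -0.183) and Ephx1 (0.248 to -0.544), neither of them called. The replicate block changed the call of Nr5a2, Fabp5 and Muc3 (log2 fold change -1.65, -1.39 and -1.62) among the list genes named by rule, and of Akr1c14, Nr1i2, Ptprc and Slc40a1 among the others. The causes were not tested.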
